A study of Mus musculus with 16 samples.

Results

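Troponin is the 3-subunit calcium switch of the striated muscle thin filament, and its 8 mouse genes (Tnnt1, Tnnt2, Tnnt3, Tnni1, Tnni2, Tnni3, Tnnc1 and Tnnc2) were followed in sorted heart muscle cells. All array probes that carry 1 of these 8 gene names were taken, which gave 10 probes of 55681 and 8 of 34821 named genes. The cells came from hearts of CD1 wild-type mice at embryonic day (E) 15.5 and at postnatal day (P) 2, and all 4 groups shared this background with no added allele or agent. Fractions were sorted by the surface level of integrin α6 (ITGA6, CD49f), which the study used to part atrial (high) from ventricular (low) cardiomyocytes. At E15.5 the cells also had to carry ERBB-2, and the CD49f-low fraction is called EL and the CD49f-high fraction EH. At P2 non-myocytes were first removed with magnetic beads, and the CD49f-low and CD49f-high fractions are called PL and PH. Each group held 4 arrays, and each RNA came from a pool of 20 to 30 embryonic or 15 neonatal hearts and from at least 50000 sorted cells, so no value belongs to 1 animal. Stage was tied to the sorting scheme and to the array slide, so for any change with stage the effects of age, sorting and slide cannot be told apart. In sorted populations, fewer cells of a type and less RNA per cell cannot be told apart either.

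In a troponin complex, troponin C binds calcium, troponin I holds the filament in the off state, and troponin T ties the complex to tropomyosin. Each subunit is made from paralogous genes. Tnnc1 encodes the troponin C of cardiac and slow skeletal muscle, and Tnnc2 that of fast skeletal muscle. Tnni3 and Tnnt2 encode the cardiac, Tnni1 and Tnnt1 the slow skeletal, and Tnni2 and Tnnt3 the fast skeletal forms of troponin I and T. Tnni1 is also the troponin I of the fetal heart, and its replacement by Tnni3 around birth is a well-known mark of cardiomyocyte maturation. The troponin I and troponin T genes lie in pairs along the chromosomes.

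The probes decide which paralogue is read, and those of the isoforms compared most closely are shown in lower case, 5′ to 3′, with positions on build mm9. The capitals in the Tnni1 and Tnni3 probes mark the longest word they have in common, which was 6 bases.
Tnni1, chr1:137705328-137706203, + strand: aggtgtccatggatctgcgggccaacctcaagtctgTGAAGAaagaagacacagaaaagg
Tnni3, chr7:4472043-4472102, - strand: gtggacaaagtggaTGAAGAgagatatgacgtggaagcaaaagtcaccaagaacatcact
The capitals in the Tnnt2 probe mark its longest word in common with the first Tnnt3 probe, 8 bases.
Tnnt2, chr1:137747976-137748288, + strand: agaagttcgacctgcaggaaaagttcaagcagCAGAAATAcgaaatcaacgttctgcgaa
The capitals in the 2 Tnnt3 probes mark the 27 bases they share, so these probes are not independent readings.
Tnnt3, chr7:149698500-149700262, + strand: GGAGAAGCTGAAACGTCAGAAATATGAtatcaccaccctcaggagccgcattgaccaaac
Tnnt3, second probe, chr7:149698467-149698526, + strand: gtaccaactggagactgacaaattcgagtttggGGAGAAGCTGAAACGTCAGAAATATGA
Across all pairs of probes from different troponin genes, the longest shared word was 8 bases of 60. The Tnni1, Tnnt2, Tnnc1 and first Tnnt3 probes spanned 876, 313, 417 and 1763 bases of the genome, so each of these probes crossed an intron. The brighter Tnnt1 probe (chr7:4456265-4456324) and the probes of Tnni2 (chr7:149630251-149630310) and Tnnc2 (chr2:164602661-164602720) held the letters AATAAA, the common polyadenylation signal, as did 10.1% of all probes. The second Tnnt1 probe (chr7:4456172-4456231) lay 33 bases further downstream. The Tnnc1 probe was at chr14:32023360-32023776. RefSeq accessions in the scanner output named 9 of the 10 probes as the array does, all but the second Tnnt1 probe, and with them all 8 genes. Exons and untranslated regions of this build were not analysed here.

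The sorted fractions carried the markers that their labels call for. Of 8 atrial genes, 7 were higher in EH than in EL and all 8 were higher in PH than in PL, against 4.27% and 6.15% of all probes. All 6 ventricular genes were lower in the CD49f-high fraction at both stages, against 3.83% of all probes at E15.5 and 5.41% at P2. Nppa, the atrial natriuretic peptide gene, had a mean normalized signal of 11561 in EL against 230715 in EH, and of 17432 in PL against 304600 in PH. The PL arrays varied, with a summed atrial signal of 20093, 48302, 90622 and 26592 on PL replicates 2, 3, 4 and 5. The part of this spread in the troponin values of PL was not tested. Myl2, the ventricular regulatory light chain, had 214764 in EL against 97505 in EH, and 214763 in PL against 24196 in PH. From EH to PH the Myl2 signal fell by 2.02 on the log2 scale.

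The 2 fractions differed in 2 of 8 troponin genes at E15.5 and in 5 of 8 at P2, of which the Tnnc2 call was lost with most single arrays left out. A gene is called changed here where the probe with its highest mean signal had a limma adjusted p of at most 0.05, with p-values adjusted over all 55681 probes. Between EH and EL, 1 gene was higher (Tnnt3), 1 was lower (Tnni2) and 6 did not pass. Of the 10 probes, 1 was higher and 1 lower, against 4.27% and 3.83% of all probes, and 1 moved by at least 3-fold, against 1.63% of all probes. Between PH and PL, 3 genes were higher (Tnnt1, Tnnt3 and Tnni2), 2 were lower (Tnni1 and Tnnc2) and 3 did not pass. Here 5 probes were higher and 2 lower, against 6.15% and 5.41% of all probes, and 4 passed 3-fold, against 2.65%. The 7 probes called at P2 included both probes of Tnnt1 and both of Tnnt3, and the background is over all probes, of which 22250 were detected. At E15.5 the count rested on 1 probe in each direction. The Tnnt3 call was lost without EL replicate 3 or 8 or EH replicate 2 or 3, and with normexp background correction. The median log2 fold-change over the 8 genes was 0.15 at E15.5 and 0.02 at P2, beside -0.02 and -0.01 over all probes.

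Between the stages, 7 genes changed in the CD49f-low cells and 4 in the CD49f-high cells. From EL to PL, 4 genes were higher (Tnni3, Tnnc1, Tnnt2 and Tnni1), 3 were lower (Tnnt1, Tnnt3 and Tnni2) and only Tnnc2 did not pass. The Tnni1 call (adjusted p = 0.0497) was lost with 75th percentile scaling (adjusted p = 0.769) and with most single arrays left out. Of the probes, 4 were higher and 5 lower, against 9.70% and 10.0% of all probes, and 3 passed 3-fold, against 3.75%. Of these 3, 1 is the second Tnnt3 probe, which was not well above background in PL. With its PL signals raised to the floor described below for Tnnt3, the fall was 1.83-fold. From EH to PH, 3 genes were higher (Tnni2, Tnni3 and Tnnc1), 1 was lower (Tnnc2) and 4 did not pass. Here 3 probes were higher and 2 lower, against 9.12% and 8.37%, and 1 passed 3-fold, against 3.39%. The median over the 8 genes was 0.29 from EL to PL and 0.08 from EH to PH, beside 0.01 and 0.03 over all probes.

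**Figure D1:**
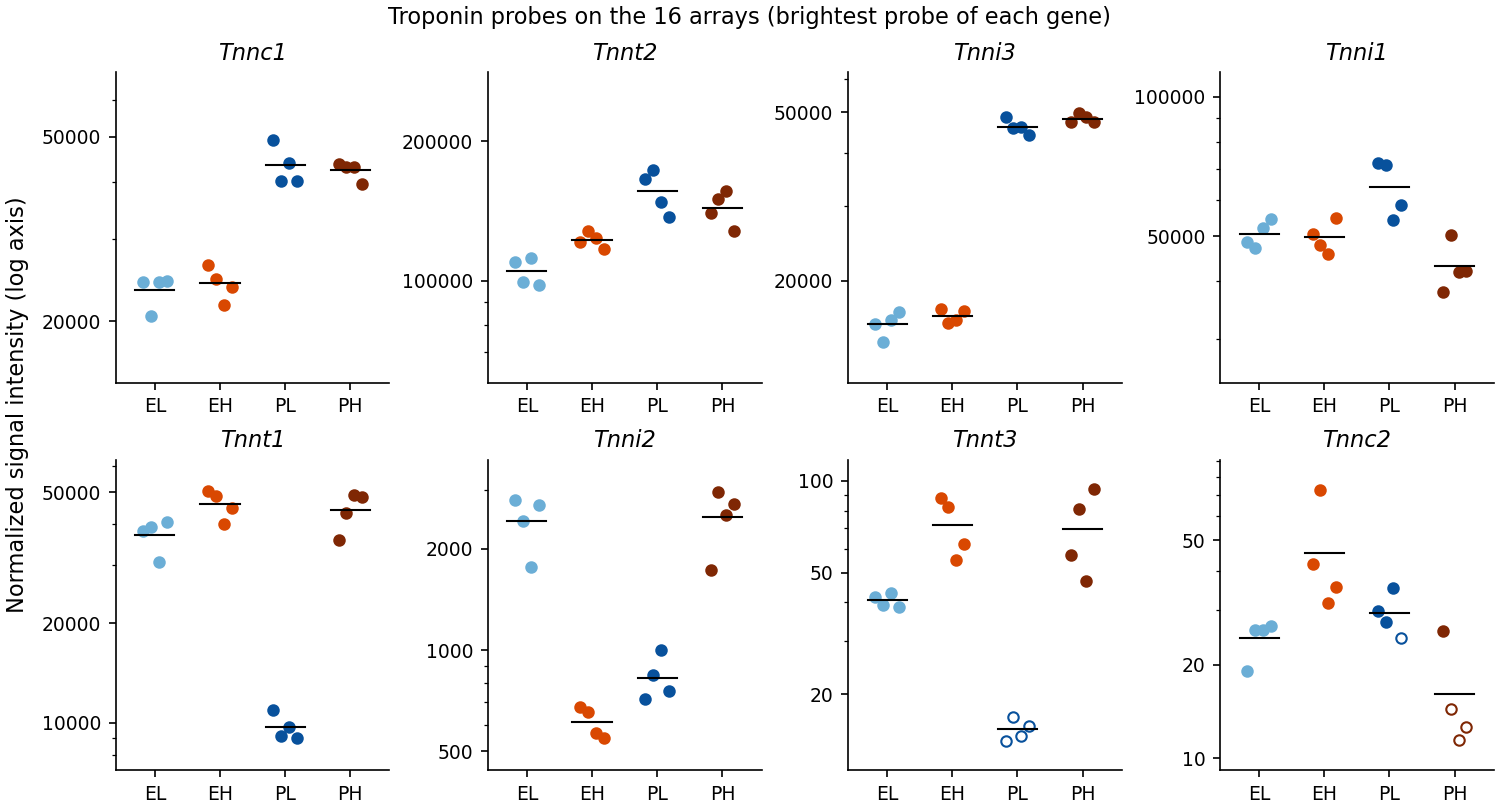
Normalized signal intensity (log axis) of the brightest probe of each troponin gene on the 16 arrays, by group, with filled points well above background, open points not, and bars at the group means. Tnni3 and Tnnc1 split by stage alone, Tnnt1 was low in PL alone, Tnnt3 was lowest in PL with EL below EH and PH, and Tnni2 was high in EL and PH and low in EH and PL.

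Tnnc1, Tnni3 and Tnnt2 make up the troponin of the adult heart. The normalized signal of Tnni3 was 15858, 14368, 16210 and 16872 on the 4 EL arrays and 17181, 15881, 16210 and 16959 on the 4 EH arrays. At P2 it was 48687, 45799, 46078 and 44175 in PL and 47428, 49677, 48617 and 47428 in PH. Every P2 array was above every E15.5 array, and the fractions of 1 stage overlapped. The mean rose 2.92-fold from EL to PL, from 15827 ± 1059 to 46185 ± 1867 (SD, n = 4; log2 fold-change 1.55, SE 0.058, adjusted p = 1.71e-09). From EH to PH it also rose 2.92-fold, from 16558 ± 613 to 48288 ± 1083 (log2 fold-change 1.54, adjusted p = 3.46e-09). The fraction differences were 0.07 at E15.5 (95% interval -0.06 to 0.19) and 0.06 at P2 (-0.06 to 0.19) on the log2 scale, and neither passed. With 75th percentile scaling they turned to -0.18 and -0.27, which did not pass either (adjusted p = 0.401 and 0.261).

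Tnnc1, which encodes the troponin C of cardiac and slow skeletal muscle, followed Tnni3 closely. Its signal was 24227, 20549, 24227 and 24373 in EL and 26411, 24652, 21701 and 23678 in EH. In PL it was 49306, 40057, 43887 and 40210, and in PH 43756, 43128, 42943 and 39543. All P2 arrays again lay above all E15.5 arrays. The rise was 1.86-fold from EL to PL (log2 fold-change 0.89, SE 0.086, adjusted p = 4.86e-06) and 1.76-fold from EH to PH (0.81, adjusted p = 1.43e-05). The fraction differences were 0.05 at E15.5 (95% interval -0.14 to 0.23) and -0.03 at P2 (-0.22 to 0.16). Over the 16 arrays the log2 signals of Tnnc1 and Tnni3 correlated at r = 0.98, a value that the stage step alone can carry.

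Tnnt2, the cardiac troponin T gene, had high signals in all groups. The EL arrays spanned 97920 to 111982 and the EH arrays 116686 to 128130, and at P2 the range was 137264 to 172894 in PL and 128131 to 156128 in PH. Tnnt2 rose 1.48-fold from EL to PL (104726 ± 7094 to 155885 ± 16429; log2 fold-change 0.57, adjusted p = 0.000229). All EH arrays were above all EL arrays, by 1.17-fold, but this did not pass across all probes (log2 fold-change 0.23, adjusted p = 0.156). With 75th percentile scaling the difference turned to -0.15, which did not pass either (adjusted p = 0.456). From EH to PH the log2 difference was 0.23 (95% interval 0.04 to 0.41, adjusted p = 0.0952). Between PH and PL the log2 difference was -0.12 (adjusted p = 0.533) and the groups overlapped, whereas scaling to the 75th percentile in place of quantile normalization gave -0.57 (adjusted p = 0.00580).

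The slow skeletal and fetal paralogues behaved in 2 ways. The signal of Tnni1, the fetal troponin I, was 48547, 47204, 52188 and 54602 in EL and 50601, 47854, 45685 and 54868 in EH. In PL it was 71836, 71107, 54309 and 58444, and in PH 37933, 50255, 41771 and 42157. EL and EH overlapped, with a log2 difference of -0.03 (95% interval -0.26 to 0.21), and every PH array was below every PL array. Tnni1 was 1.48-fold lower in PH than in PL (43029 ± 5181 against 63924 ± 8882; log2 fold-change -0.57, SE 0.109, adjusted p = 0.00270). Its rise from EL to PL was small and near the threshold (1.26-fold, adjusted p = 0.0497), and it did not pass without EL replicate 2, 3, 6 or 8 or PL replicate 2 or 3 (adjusted p from 0.0514 to 0.139). With 75th percentile scaling it was 0.074 in place of 0.33 on the log2 scale (adjusted p = 0.769). From EH to PH the log2 difference was -0.21 (95% interval -0.45 to 0.02). So the fetal isoform still gave a strong signal at P2 in both fractions.

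Tnnt1, the slow skeletal troponin T, was low in PL alone. Its brighter probe read 38188, 39275, 30615 and 40653 in EL and 50255, 48687, 39935 and 44718 in EH. At P2 it read 10906, 9094, 9709 and 8963 in PL and 35856, 43359, 48895 and 48178 in PH. No PL array came near the range of another group. PL was 3.83-fold below EL (log2 fold-change -1.94, SE 0.120, adjusted p = 1.02e-07), and PH was 4.54-fold above PL (2.18, adjusted p = 3.69e-08). EH and EL differed by 0.31 (95% interval 0.05 to 0.57, adjusted p = 0.177).

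The second Tnnt1 probe, whose gene name rests on the array's annotation alone, gave means of 5048 ± 720 in EL and 5704 ± 748 in EH, against 688 ± 88.5 in PL and 3027 ± 508 in PH. It shared the low PL value (PH over PL 4.38-fold, adjusted p = 3.72e-07; PL below EL 7.32-fold, adjusted p = 2.23e-08). The 2 probes disagreed on EH against PH. The brighter probe had a log2 difference of -0.06 (95% interval -0.32 to 0.20, adjusted p = 0.822) from EH to PH and the second fell by 0.92 (adjusted p = 0.000569).

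Tnni2, the fast skeletal troponin I, differed between the fractions in opposite directions at the 2 stages. Its probe read 2805, 2429, 1762 and 2709 in EL and 676, 656, 569 and 550 in EH. At P2 it read 713, 842, 1004 and 754 in PL and 1728, 2952, 2529 and 2730 in PH. The high fraction at E15.5 was thus the CD49f-low one, and at P2 it was the CD49f-high one, with no overlap at either stage. EH was 3.91-fold below EL (613 ± 62.7 against 2426 ± 471; log2 fold-change -1.97, SE 0.182, adjusted p = 1.01e-05). The difference was -2.14 among the arrays of slide 1 and -1.86 among those of slide 2, the only slides that held both embryonic fractions. Slide 2 held only 1 EH array. PH was 2.97-fold above PL (2485 ± 533 against 828 ± 129; 1.57, adjusted p = 3.82e-05). Tnni2 fell 2.91-fold from EL to PL (adjusted p = 2.88e-05) and rose 3.99-fold from EH to PH (adjusted p = 3.72e-06).

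Tnnt3, the fast skeletal troponin T, was dim, and in PL neither of its probes was well above background on any array. The brighter probe read 41.6, 39.3, 43.0 and 38.7 in EL and 87.9, 81.8, 55.3 and 62.0 in EH. It read 57.3, 80.8, 47.1 and 94.0 in PH, and between 14.1 and 16.9 in PL. All EH arrays were above all EL arrays, and all PH arrays above all PL arrays. EH was 1.74-fold above EL (log2 fold-change 0.80, SE 0.196, adjusted p = 0.0215). The difference was 0.93 within slide 1 and 0.43 within slide 2, which held 1 EH array. The second probe had a log2 difference of 0.77 (adjusted p = 0.173), and the call of the first was lost without EL replicate 3 or 8 or EH replicate 2 or 3 (adjusted p from 0.0579 to 0.0705) and with normexp background correction (0.31, adjusted p = 0.0557). With detected probes alone both Tnnt3 probes passed (adjusted p = 0.00553 and 0.0328). With the PL signals raised to a floor, PH was 3.46-fold above PL by the first probe (adjusted p = 4.56e-06) and 3.18-fold by the second (adjusted p = 2.38e-05). The floor replaces each unmeasured PL signal with the lowest signal that was well above background on its array, where that was higher. The lowest such signal is a lenient floor, and a Tnnc2 signal of 24.4 on PL replicate 5 was not well above background. So these folds are not strict lower limits. They apply to the processed signals alone, since normexp correction, which adds an offset of 50 to every signal, gave a log2 difference of 0.60 by the first probe (adjusted p = 0.000248). With the same floor Tnnt3 was 2.09-fold lower in PL than in EL (adjusted p = 0.000123). The adjusted p beside each of these folds comes from the fit to the signals as read, and the folds at the floor were not tested. Between EH and PH the log2 difference was -0.07 (95% interval -0.49 to 0.36).

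Tnnc2, the fast skeletal troponin C, gave a dim signal in all groups. It was well above background on 4 of 4 EL arrays (19.0, 25.9, 25.9 and 26.6), 4 of 4 EH arrays (42.0, 72.6, 31.5 and 35.6), 3 of 4 PL arrays (29.6, 27.4, 35.2 and 24.4) and 1 of 4 PH arrays (25.7, 14.4, 11.5 and 12.6). The highest values were in EH and the lowest in PH. Tnnc2 was lower in PH than in EH (log2 fold-change -1.50, SE 0.275, adjusted p = 0.00140), a size that rests on 1 measured PH array and was -0.43 with normexp correction (adjusted p = 0.00320). PH and PL overlapped (log2 fold-change -0.93, adjusted p = 0.0446), and this call was lost with the replicate number as a block (adjusted p = 0.0702), with normexp correction (-0.14, adjusted p = 0.342) and on leaving out any 1 PL array or PH replicate 3, 4 or 5 (adjusted p from 0.0522 to 0.132). All EH arrays were above all EL arrays, but the difference of 0.83 did not pass (adjusted p = 0.0922). It passed with detected probes alone (adjusted p = 0.0238) and with 1 value per gene (adjusted p = 0.0381), which test fewer features.

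The fraction difference itself changed with stage for 4 genes. Of the 10 probes, 5 had a higher and 1 a lower high-over-low difference at P2 than at E15.5, against 1.81% and 1.35% of all probes, and 5 of these stage differences were at least 3-fold, against 1.20%. The largest was that of Tnni2, from -1.97 at E15.5 to 1.57 at P2, a change of 3.54 (SE 0.257, 11.6-fold, adjusted p = 7.28e-06). It ranked 105 of 55681 probes by size. Tnnt1 gained 1.88 (adjusted p = 4.11e-05). Tnnt3 gained 1.00 by its first probe and 0.90 by its second, with the unmeasured PL signals at the floor, which is not a strict limit. The fitted gains were 1.34 (adjusted p = 0.0166) and 1.95 (adjusted p = 0.0218), and the gains at the floor were not tested. So the 3-fold pass of the second probe rests on signals that were not above background. Tnnc2 changed by -1.76 (adjusted p = 0.0242), a size, past 3-fold, that rests on 1 measured PH array of 4. The Tnnc2 call was lost without EL replicate 2 or PH replicate 3, 4 or 5 (adjusted p from 0.0508 to 0.0571) and with the replicate number as a block (adjusted p = 0.0570). The call of the first Tnnt3 probe was lost without both E15.5 libraries numbered 6 (1.19, adjusted p = 0.0703), as was that of the second (1.91, adjusted p = 0.0871). With normexp correction neither gene passed, at 0.29 for the first Tnnt3 probe (adjusted p = 0.338), 0.35 for the second (adjusted p = 0.222) and -0.45 for Tnnc2 (adjusted p = 0.0836). Tnni3 and Tnnc1 had stage differences of -0.0020 (95% interval -0.18 to 0.18) and -0.08 (-0.34 to 0.19). Tnnt2 had -0.34 (adjusted p = 0.197) and Tnni1 -0.54 (95% interval -0.87 to -0.21, adjusted p = 0.0886). The Tnni1 stage difference passed with normexp correction (-0.57, adjusted p = 0.0213), with detected probes alone (0.0412), with 1 value per gene (0.0421) and without PL replicate 4 (0.0406) or PH replicate 3 (0.0446).

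**Figure D2:**
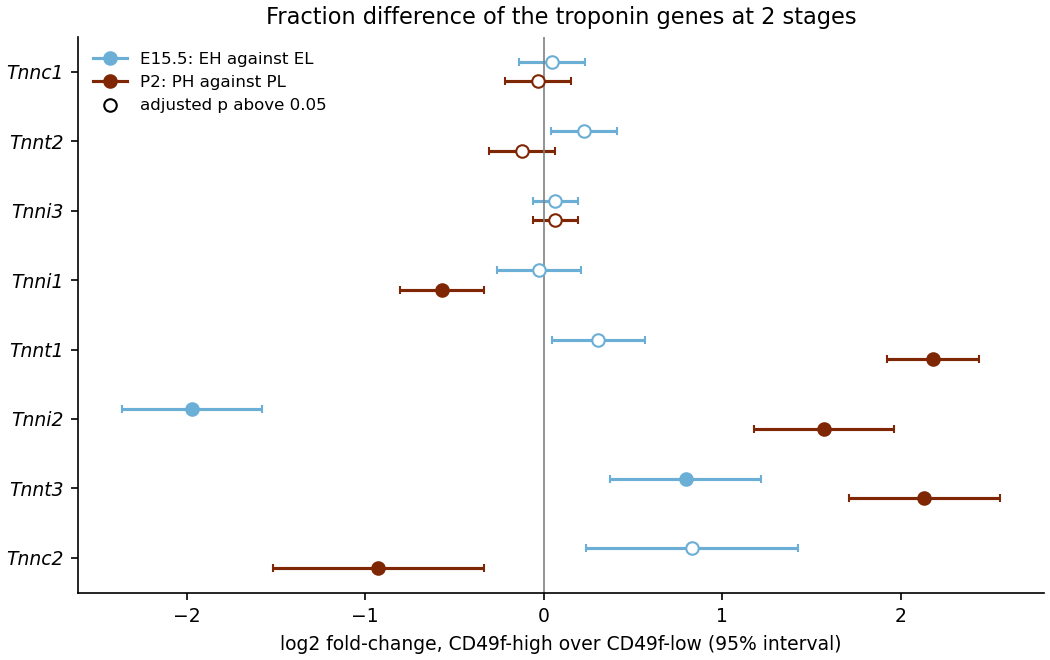
Log2 fold-change of CD49f-high over CD49f-low cells for each troponin gene at E15.5 (light) and P2 (dark), with 95% intervals that are not adjusted for multiple tests, and filled points where the adjusted p was at most 0.05. Tnni2 lay at -1.97 at E15.5 and at 1.57 at P2, while Tnni3 and Tnnc1 lay within 0.07 of 0 at both stages. The Tnnt3 point at P2 uses PL signals that were not above background.

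The ratio of a pair of paralogues was read on each array from the quantile-normalized signals. A single factor for the whole array cancels in it, but quantile normalization acts by rank and does not cancel. Levels of different probes cannot be set against each other, so only the shift of a ratio between groups is read. The log2 ratio of Tnni1 to Tnni3 was 1.61, 1.72, 1.69 and 1.69 in EL and 1.56, 1.59, 1.49 and 1.69 in EH. At P2 it was 0.56, 0.63, 0.24 and 0.40 in PL and -0.32, 0.02, -0.22 and -0.17 in PH. All P2 arrays were below all E15.5 arrays, and all PH arrays were below all PL arrays. The ratio fell 2.33-fold from EL to PL (mean 1.68 ± 0.0442 to 0.46 ± 0.177) and 3.38-fold from EH to PH (1.58 ± 0.0831 to -0.17 ± 0.142). It was 1.55-fold lower in PH than in PL (log2 difference -0.63). Each of these 3 comparisons had the smallest p that 4 arrays against 4 can give in a two-sided exact permutation test (p = 0.0286, adjusted p = 0.0457 over the 8 ratio comparisons). EH and EL overlapped and differed by -0.09 (exact p = 0.0857, adjusted p = 0.0980). The difference was -0.04 within slide 1 and -0.21 within slide 2, which held 1 EH array. Paired by number, EH was lower in 4 of 4 pairs, with differences of -0.06, -0.12, -0.19 and -0.00042 (exact sign-flip p = 0.125, the smallest that 4 pairs can give).

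The log2 ratio of Tnnt1 to Tnnt2 singled out PL. It was -1.52, -1.34, -1.87 and -1.27 on the EL arrays, -1.27, -1.40, -1.63 and -1.38 on the EH arrays, and -1.96, -1.79, -1.67 and -1.41 on the PH arrays. In PL it was -3.93, -4.25, -3.92 and -3.94, below every other array. The PL ratio was 5.69-fold below EL and 4.93-fold below PH (exact permutation p = 0.0286, adjusted p = 0.0457 for both). It differed by 0.08 between EH and EL (exact p = 0.657) and by -0.29 between PH and EH (exact p = 0.0571, adjusted p = 0.0762). With both Tnnt1 probes averaged, the last difference was -0.72 and passed (adjusted p = 0.0381), since the second Tnnt1 probe fell from EH to PH.

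**Figure D3:**
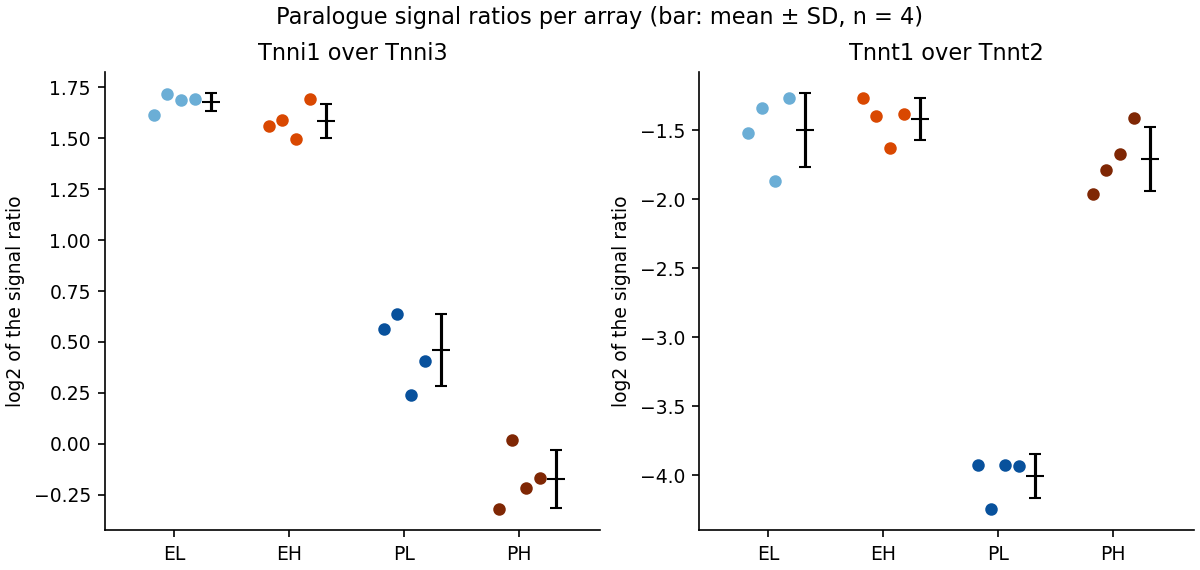
Log2 ratio of the normalized signals of Tnni1 over Tnni3 (left) and Tnnt1 over Tnnt2 (right) on each of the 16 arrays, with the mean ± SD of each group beside its points. The troponin I ratio was lower in both P2 groups and lowest in PH, and the troponin T ratio was low in PL alone, at -4.25 to -3.92.

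Tnni1 with Tnnt2, Tnnt1 with Tnni3 and Tnni2 with Tnnt3 lie in pairs, and RefSeq (GRCm38.p6, used here for names and gene order only) gave their neighbours. Tnni1 and Tnnt2 lie on chromosome 1 with Lad1 between them, Tnnt1 and Tnni3 lie side by side on chromosome 7, and Tnni2 and Tnnt3 lie elsewhere on chromosome 7 with Lsp1 between them. From EL to PL both Tnni1 and Tnnt2 were higher, by 0.33 and 0.57, with the Tnni1 call near the threshold, and both Tnni2 and Tnnt3 were lower. Other comparisons parted the members of a pair. Tnni1 was lower in PH than in PL and Tnnt2 did not pass. In the Tnnt1 and Tnni3 pair, Tnnt1 fell and Tnni3 rose from EL to PL. In the Tnni2 and Tnnt3 pair, both were higher in PH than in PL, while at E15.5 Tnni2 was lower and Tnnt3 higher in EH.

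Lsp1, a gene best known from leukocytes that encodes an actin-binding protein, was also higher in PH than in PL. Its mean signal was 1765 ± 163 in EL and 1557 ± 260 in EH, against 1716 ± 112 in PL and 7786 ± 1731 in PH. PH was thus above the other 3 groups (PH against PL log2 fold-change 2.16, adjusted p = 3.83e-07; EH against EL -0.19, adjusted p = 0.599; stage difference 2.35, adjusted p = 4.73e-05). Of the 4 leukocyte markers, 0 were higher in PH than in PL, and the summed leukocyte signal ran from 282 to 379 in PL and from 200 to 323 in PH. Ptprc, the common leukocyte antigen gene, was not well above background on any P2 array. The part of leukocytes in the Lsp1 difference was not tested. Lad1, which encodes an anchoring filament protein, was higher in EH than in EL (2.43, adjusted p = 0.000490) and in PH than in PL (1.94, adjusted p = 0.00176), beside Tnni1 and Tnnt2 that were not. Phlda3, on the other side of Tnni1, was higher in PH than in PL by 0.36 (adjusted p = 0.0306). The outer neighbours Syt8, Mrpl23, Ppp1r12c, Dnaaf3 and Pkp1 did not pass in either fraction comparison. Of all 12 neighbours of the 8 genes, 1 was above EL in EH and 0 were below it. At P2, 3 were above PL in PH, and 1 was below it (Snx21, beside Tnnc2, -0.34). Of all probes, 4.27% were higher and 3.83% lower in the E15.5 comparison, and 6.15% and 5.41% in the P2 comparison, so 1 of 12 at E15.5 is near the background. The neighbours were chosen by position, after the data were seen.

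**Figure D4:**
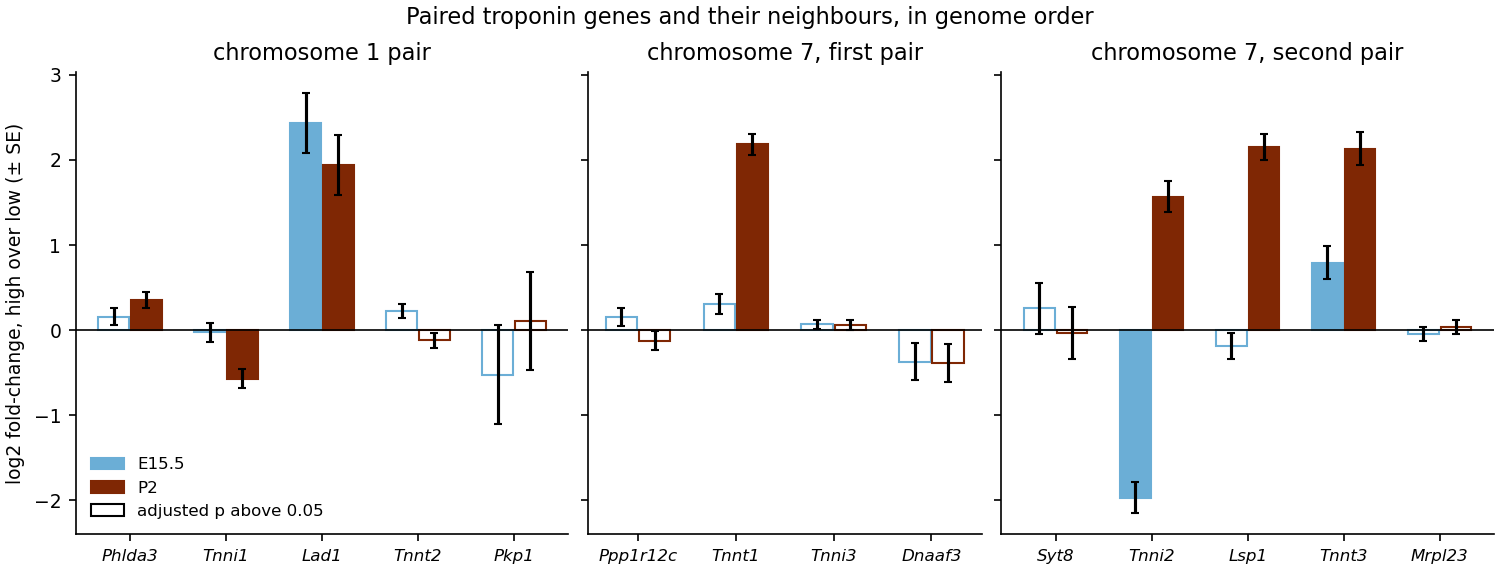
Log2 fold-change of CD49f-high over CD49f-low cells (± SE) at E15.5 (light) and P2 (dark) for the 3 troponin gene pairs and the genes beside and between them, in genome order and not to scale, with open bars where the adjusted p was above 0.05. Tnni2 and Lsp1 were higher in PH than in PL, at 1.57 and 2.16, as was Tnnt3, whose bar uses PL signals that were not above background, while Syt8 and Mrpl23 beside them did not pass.

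The RefSeq table held the 250 bases before the start of 6 of the genes. Those of Tnnt1, which was low in PL alone, and of Tnnc1, which moved with Tnni3, are shown with motif matches on either strand in capitals. The letters searched were TATAAA for the TATA box and CATTCC for the M-CAT element. For the E-box they were CANNTG, and for the GATA factors GATAAG. No 2 of these motifs overlapped in the windows shown.
Tnnt1, GRCm38.p6 chr7:4515976-4516225, - strand: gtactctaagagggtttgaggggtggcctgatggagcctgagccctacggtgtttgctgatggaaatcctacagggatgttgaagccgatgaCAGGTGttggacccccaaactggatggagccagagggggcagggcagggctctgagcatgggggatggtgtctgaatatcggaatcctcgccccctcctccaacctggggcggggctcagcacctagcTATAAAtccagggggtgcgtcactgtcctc
Tnnc1, GRCm38.p6 chr14:31208062-31208311, + strand: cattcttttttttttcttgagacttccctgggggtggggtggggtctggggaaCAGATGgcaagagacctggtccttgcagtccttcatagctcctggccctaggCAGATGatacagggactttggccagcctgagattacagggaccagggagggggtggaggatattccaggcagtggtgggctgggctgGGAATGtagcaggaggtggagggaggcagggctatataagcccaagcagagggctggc
Tnnt1 held a TATAAA 30 bases before the start, as did 12.4% of the 32851 windows at any place. Only these exact letters were searched. A window without them, such as that of Tnnc1 with its tatataag, was thus not shown to lack a TATA box. Tnnc1 and 1 of the Tnnt2 windows held CATTCC, found in 12.6% of all windows. The E-box letters were in all 8 troponin windows and in 66.2% of all windows, and GATAAG was in none of the 8 and in 6.55% of all. A match is a description of the letters and not of a site in use.

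The other thin filament genes were read beside the share of all probes called. Of 23 genes, 20 were well above background on all 4 arrays of a group. From EL to PL, 11 were higher, 4 lower and 8 did not pass (median log2 fold-change 0.38), and from EH to PH 9 were higher, 5 lower and 9 did not pass (0.23). Of all probes, 9.70% were higher and 10.0% lower from EL to PL, and 9.12% and 8.37% from EH to PH. Tmod4, a pointed-end capping protein of the filament, rose 2.10 on the log2 scale from EL to PL and 1.35 from EH to PH, and Tpm4, a non-muscle tropomyosin, fell by 2.10 and by 1.19. Tpm2, the beta-tropomyosin, fell by 1.64 from EL to PL and was higher in PH than in PL by 1.93 (adjusted p = 8.40e-06). Acta1, skeletal alpha-actin, fell by 1.63 from EH to PH (adjusted p = 0.000860). Xirp2, an actin-binding repeat protein of the intercalated disc, was well above background on 0 of 4 EL arrays, 2 of 4 PL arrays, 1 of 4 EH arrays and 3 of 4 PH arrays. It was higher in PH than in EH (adjusted p = 0.00181). With the EL signals at a floor like that used for Tnnt3, it was 1.18-fold higher in PL than in EL.

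Between the fractions, 4 of these 23 genes were higher and 3 lower at E15.5, and 3 were higher and 4 lower at P2, against 4.27% and 3.83% of all probes at E15.5 and 6.15% and 5.41% at P2. The medians were 0.12 and -0.02. The fraction effect differed between the stages for 3 of the 23, Tpm4 (0.91), Lmod3 (0.79) and Tmod4 (-0.75), against 1.81% higher and 1.35% lower of all probes. Actc1, cardiac alpha-actin, had log2 differences of 0.0086 between EH and EL and -0.11 between PH and PL, neither of which passed. Quantile normalization sets such top signals by rank, and it gave Actc1 297935 on EL replicate 2 and EH replicate 8 alike. So these small differences cannot show whether Actc1 was equal in the fractions.

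**Figure D5:**
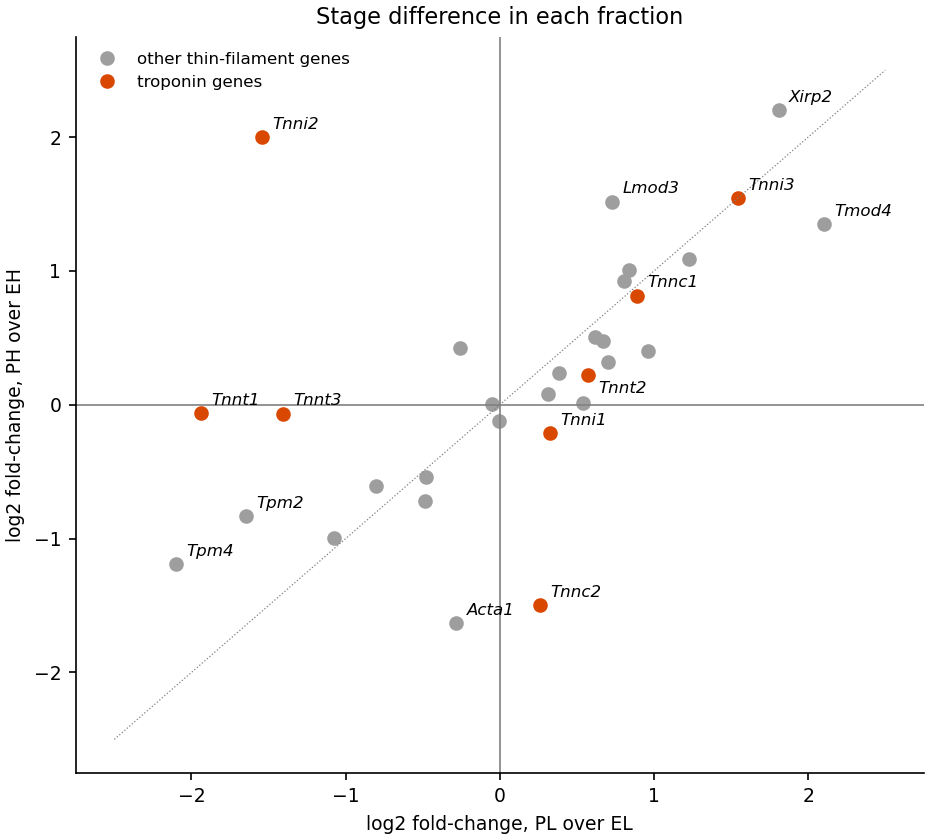
Log2 fold-change from EL to PL (x axis) against that from EH to PH (y axis) for the 8 troponin genes (orange) and 23 other thin filament genes (grey), which use different arrays on the 2 axes, with a dotted line where both are equal. Tnni3 and Tnnc1 lay near the line at 1.55 and 1.54 and at 0.89 and 0.81, while Tnni2, Tnnt1, Tnnt3 and Tnnc2 lay far from it. The Tnnt3 point uses PL signals that were not above background, and the Tnnc2 point rests on 1 measured PH array of 4.

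Of 10 kinases and phosphatases that act on troponin or are bound to it, all were well above background. Tnni3k, a cardiac kinase named for binding cardiac troponin I, rose with stage like Tnni3, from 478 ± 89.1 in EL to 1482 ± 160 in PL (log2 fold-change 1.65, adjusted p = 8.89e-06), and the step between EH and PH went from 290 ± 70.2 to 974 ± 138 (1.76, adjusted p = 6.16e-06). Unlike Tnni3, it was lower in the CD49f-high fraction at both stages (-0.73 and -0.61, adjusted p = 0.0156 and 0.0315). From EL to PL, 2 of the 10 were higher and 2 lower, and from EH to PH 5 were higher and 2 lower (medians 0.02 and 0.30), beside 9.70% and 10.0% and 9.12% and 8.37% of all probes. Between the fractions, 0 were higher and 2 lower at E15.5, and 2 were higher and 3 lower at P2 (medians -0.20 and 0.05), beside 4.27% and 3.83% and 6.15% and 5.41% of all probes. Prkca, protein kinase C alpha, was lower in EH than in EL (-0.85) and in PH than in PL (-0.75). Prkg1, the cGMP-dependent kinase, was the only one with a stage difference of the fraction effect that passed (1.38, adjusted p = 0.0143), with PH above PL by 1.07.

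Skeletal muscle genes were looked at because 5 of the 8 members carry skeletal names. Of 18 skeletal genes, 9 were not well above background on any array, among them the determination factors Myod1, Myf5, Myf6 and Pax7 and the adult fast myosins Myh1, Myh2 and Myh4. Myog, the myogenin gene, was well above background on all 4 EH arrays (mean 34.6) and 2 PH arrays, and on no EL or PL array. The summed signal of the 18 genes ran from 11925 to 14975 in EL and 30879 to 32516 in EH at E15.5, and at P2 from 28795 to 32826 in PL and 47182 to 53782 in PH. In the CD49f-high groups Myl1, a light chain also known in atrial muscle, was the brightest, at 17367 ± 803 in EH and 23225 ± 1842 in PH. It was higher than in the CD49f-low fraction by 5.63 at E15.5 and 5.19 at P2. Between EH and EL, 7 of the 18 were higher and 1 lower, and between PH and PL 3 were higher and 2 lower (medians -0.0093 and 0.0023), beside 4.27% and 3.83% and 6.15% and 5.41% of all probes. Pvalb, parvalbumin, was higher in both CD49f-high groups (1.72 and 1.83), and Cacna1s, the skeletal calcium channel, was lower in PH than in PL (-2.26). From EL to PL 4 were higher and 1 lower, and from EH to PH 3 were higher and 3 lower (medians 0.08 and -0.04), beside 9.70% and 10.0% and 9.12% and 8.37% of all probes. Atp2a1, the fast-muscle calcium pump, rose from EL to PL by 2.19. Their part in the differences of Tnnt3, Tnnc2 and Tnni2 was not tested.

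Markers of other heart cells moved with some of the groups. Of 5 endothelial genes, 3 were higher in EH than in EL, where 4.27% of all probes were higher. Cdh5, VE-cadherin, was well above background on 4 of 4 EH arrays (mean 212 ± 175) and on no array of the other 3 groups, and Emcn, endomucin, likewise (77.5 ± 58.7). The summed endothelial signal, led by Kdr on every array, ran from 1017 to 1171 in EL and 719 to 1645 in EH at E15.5, and at P2 from 320 to 1543 in PL and 456 to 1041 in PH. Of 4 leukocyte genes, 2 were higher in EH than in EL. The summed leukocyte signal was 1030, 857, 6533 and 1459 on EH replicates 2, 3, 6 and 8 and 589, 478, 1591 and 528 on EL replicates 2, 3, 6 and 8, and it ran from 282 to 379 in PL and from 200 to 323 in PH. EH replicate 6 and EL replicate 6 also had the highest summed erythroid signals, 33974 and 30387, against 3628 to 17584 on the other E15.5 arrays. Without both of these libraries, Tnni2 differed between EH and EL by -2.08 and Tnnt3 by 0.94, and 2 probes passed as before.

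Markers of other cells were also lower at P2 than at E15.5. Of all probes, 10.0% were lower from EL to PL and 8.37% from EH to PH. Of 5 fibroblast genes, 4 were lower in PL than in EL and all 5 were lower in PH than in EH. Of 4 leukocyte genes, 1 was lower in PL than in EL and all 4 in PH than in EH. Of 5 endothelial genes, 0 were lower in PL than in EL and 3 (Cdh5, Emcn and Tek) in PH than in EH. The summed fibroblast signal, led by Col1a1 at E15.5 and by Dcn at P2, ran from 7021 to 11833 in EL and 2740 to 5885 in EH, and from 275 to 920 in PL and 309 to 443 in PH. Of 4 erythroid genes, 2 were lower in PL than in EL and 3 in PH than in EH. The summed erythroid signal, led by Hba-a1 on every array, was at most 870 at P2. The part of these cells in the stage differences was not tested. Of 8 general cardiomyocyte genes, which include Tnnt2 itself, 6 were higher in PL than in EL and 3 in PH than in EH, and none was lower in either, beside 9.70% and 9.12% of all probes that were higher. Between the fractions, EH had 1 above and 2 below EL, and PH had 0 above and 3 below PL (Ttn -0.48, Ryr2 -0.37 and Mybpc3 -0.68), beside 4.27% and 3.83% of all probes at E15.5 and 6.15% and 5.41% at P2. Their part in the lower Tnni1 of PH was not tested.

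Genes whose log2 signal ran most like that of a troponin gene over the 16 arrays were sought among 13195 genes that were well above background on all arrays. Tnni3 was the gene most like Tnnc1 (r = 0.98), and it was itself closest to Tsc22d4, Pfkm and Gpd1 (r = 0.99 each). Tnnt1 ran closest to Tuba1a (r = 0.98), Psip1 and Dpysl2 (both r = 0.97), and Tnnt2 to Ensa, Smpd2 and Cog6 (r = 0.95, 0.95 and 0.94). The nearest to Tnni1 were Suclg2, Eepd1 and Kpna1 (r = 0.91, 0.91 and 0.90), and those to Tnni2 were Bend6, Fam76b and Mpnd (r = 0.88, 0.87 and 0.86). The arrays share 2 stages and 2 fractions, so these values describe the order of 4 group means more than 16 separate points. Among the troponin genes, Tnni1 and Tnnt1 ran in opposite directions (r = -0.73), and Tnni3 and Tnnt2 together (r = 0.84).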

How the data were processed

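The 16 arrays were single-colour Agilent mouse 8x60K arrays hybridised with Cy3-labelled RNA amplified from 10 ng. The authors deposited scanner output in which Agilent Feature Extraction (10.7.3.1 per the file headers) had subtracted the background, as a linear intensity per spot. They also deposited a table of log2 normalized values, which was used as an alternative. Here outlier spots were dropped, replicate spots were averaged per probe, and the intensity was quantile-normalized across arrays and taken to log2. A mean per group was fitted over all 16 arrays with limma 3.58.1 in R 4.3.3, and p-values were adjusted by Benjamini-Hochberg over 55681 probes. Of these, 22250 were well above background on all 4 arrays of a group. No probe was saturated. Between 35.7% and 46.5% of probes per array were well above background, and the number of arrays limits the precision. The scripts were tested on simulated data.

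Groups came from the sample titles. The study's methods speak of independent experiments, so each replicate is a separate pool of hearts. No 2 of the 120 pairs of arrays held identical values. E15.5 samples with the same number deviated together (r = 0.25, 0.19, 0.45 and 0.38 over detected probes), so their numbers were taken to pair them, while at P2 replicate 4 did not (r = -0.03). The main fit and the exact permutation tests did not use this pairing. It entered only in the replicate block and the sign-flip tests. All E15.5 arrays lay on slides 1 and 2 and all P2 arrays on slide 3.

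Named were all troponin probes, up to 4 members of a gene list per comparison that changed by at least 3-fold, the study's limit, and the 3 genes most like each troponin gene. The members and lists were chosen with earlier results of these data known. Other genes named, such as Tnni3k in the fraction comparisons, Prkca, Prkg1, Lmod3, Actc1, Myog, Ttn, Ryr2, Mybpc3, Ptprc, the undetected skeletal genes and the neighbours, were chosen after their values were seen. Alternatives were 75th percentile scaling, normexp background correction, the authors' log2 values, detected probes alone, the mean over the probes of a gene, replicate number or slide as a block, the study's analysis of variance with a Tukey test, and leaving out each array. Leaving out both E15.5 libraries numbered 6 was added after the data were seen. Pacemaker genes (8) and smooth muscle genes (5) were also run as markers: 5 and 1 were higher in EH than in EL, 3 and 2 in PH than in PL, while none was lower in EH and 1 and 1 were lower in PH. From EL to PL, 1 and 1 were higher and 0 and 2 lower, and from EH to PH 1 and 1 were higher and 2 and 3 lower. Of all probes, 4.27%, 6.15%, 9.70% and 9.12% were higher and 3.83%, 5.41%, 10.0% and 8.37% lower in these 4 comparisons. Promoters and gene order came from RefSeq on GRCm38.p6, and the array positions are on mm9, so no coordinates were carried between builds.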

Additional observations from a re-analysis of the deposited data

Results flagged for a closer look

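In 48 groups of 4 arrays (10 probes and 2 ratios in 4 groups each), 3 held an array whose gap to its nearest neighbour made up nearly the whole range of its group. Chance alone gives about 1 such group in 20. The Tnnc1 signal of EL replicate 3 was 20549, against 24227 to 24373 on the other 3 EL arrays. The Tnnc2 signal of EL replicate 2 was 19.0, against 25.9 to 26.6. The log2 ratio of Tnnt1 to Tnnt2 in PL replicate 3 was -4.25, against -3.94 to -3.92.

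The high-over-low difference changed between E15.5 and P2, by the interaction term of the limma fit, for 6 probes of 4 genes. Tnni2 gained 3.54 on the log2 scale (adjusted p = 7.28e-06), and its direction turned. Both Tnnt1 probes gained, by 1.88 (adjusted p = 4.11e-05) and 1.95 (adjusted p = 0.000172), and so did both Tnnt3 probes, by 1.34 (adjusted p = 0.0166) and 1.95 (adjusted p = 0.0218). In PL neither Tnnt3 probe was above background, and with those signals raised to the floor the gains were 1.00 and 0.90. The call of the second probe was lost without EL replicate 2 (adjusted p = 0.0526), EH replicate 8 (0.0505) or both E15.5 libraries numbered 6 (0.0871). It was also lost with normexp correction (0.35, adjusted p = 0.222) and with the replicate number as a block (adjusted p = 0.0688). The call of the first probe was lost without both E15.5 libraries numbered 6 (adjusted p = 0.0703) and with normexp correction (0.29, adjusted p = 0.338). Tnnc2 changed by -1.76 (adjusted p = 0.0242), with 1 of 4 PH arrays well above background. Its call was lost with the replicate number as a block (adjusted p = 0.0570) and with normexp correction (-0.45, adjusted p = 0.0836). It was also lost without EL replicate 2 or PH replicate 3, 4 or 5. The signal of Tnni2 was higher in 4 of 4 EL arrays than in any EH array and in 4 of 4 PH arrays than in any PL array.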

How the results depend on the processing

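The counts of troponin probes called by the authors' values and by the study's own test were those given in the report. The study's test was not run for the stage difference. Scaling to the 75th percentile in place of quantile normalization moved the median of all probes by -0.16 (EH against EL), -0.14 (PH against PL), 0.17 (PL against EL) and 0.16 (PH against EH) on the log2 scale. It turned uncalled differences to -0.0094 (Tnnt1), -0.15 (Tnnt2), -0.18 (Tnni3) and -0.24 (Tnnc1) in EH against EL and to -0.27 (Tnni3) in PH against PL, and took 2 probes past 3-fold from EH to PH in place of 1.

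Normexp correction left 1 called probe in place of 2 in EH against EL, 2 in place of 4 past 3-fold in PH against PL, and 3 in place of 5 past 3-fold in the stage difference. The Tnnt3 calls were lost with it (EH against EL 0.31, adjusted p = 0.0557; stage difference 0.29, adjusted p = 0.338), as was the Tnnc2 call in PH against PL (-0.14) and in the stage difference (-0.45, adjusted p = 0.0836). With detected probes alone 4 probes passed in EH against EL. Averaging the probes of a gene, which tests fewer features, gave 2 genes past 3-fold in PH against PL, as many genes as in the main fit. It gave the Tnnt1 to Tnnt2 ratio -0.72 in PH against EH (adjusted p = 0.0381). Without E15.5 pool 6, 2 probes passed 3-fold from EH to PH, and Tnni1 in EH against EL was 0.029 in place of -0.03. With the slide as a block the Tnni3 stage difference was 0.017. The Tnni1 to Tnni3 ratio in EH against EL was -0.04 within slide 1 and -0.21 within slide 2, which held 1 EH array.

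With the replicate number as a block, 3 stage differences passed 3-fold in place of 5, and the Tnnc2 calls did not pass (PH against PL -0.93, adjusted p = 0.0702; stage difference -1.76, adjusted p = 0.0570). The stage difference of the second Tnnt3 probe did not pass either (1.95, adjusted p = 0.0688). The block changed no other call of the troponin probes in the 3 comparisons it was run for, the fractions at each stage and the stage difference. Paired by number, the ratio differences of -0.63 (Tnni1 to Tnni3) and 2.30 (Tnnt1 to Tnnt2) in PH against PL had an exact sign-flip p of 0.125, the smallest that 4 pairs can give. In E15.5 every sample was most like its own number, and at P2 replicate 4 was not.

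Leaving out 1 array at a time gave 1 to 2 called probes in EH against EL (main 2), 1 to 2 past 3-fold from EH to PH (main 1), 3 to 5 past 3-fold in the stage difference (main 5) and a Tnnt1 to Tnnt2 ratio difference from -0.043 to 0.16 in EH against EL. Uncalled differences near 0 changed sign: in EH against EL Tnni1 ran from -0.075 to 0.014 and Tnnc1 from -0.013 to 0.10, in PH against PL Tnnc1 from -0.067 to 0.033, in PH against EH Tnnt1 from -0.13 to 0.032 and Tnnt3 from -0.23 to 0.10, and in the stage difference Tnni3 from -0.034 to 0.044. The cause of these changes was not tested. Tnnt3 and Tnnc2 were near background, which limits what their folds can show.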
